A study of Mus musculus with 31 samples.

Results

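Cyclins, cyclin-dependent kinases and the enzymes that switch them on and off were followed in single 2-cell mouse embryos. The 10 genes Ccna2, Ccnb1, Ccnb2, Ccne1, Cdk1, Cdk2, Mos, Wee2, Cdc25b and Plk1 were taken by name from a table of 20544 genes, and all 10 were found in it. Their choice used no measured value, although it was made with results of these embryos known. Oocytes of superovulated CD1 females aged 8 to 10 weeks were fertilized in vitro with sperm of C57BL/6J males aged 12 to 14 weeks. Control sperm were kept in medium with glucose and pyruvate. SER (sperm energy restriction and recovery) sperm were kept without these nutrients until they stopped moving, between 15 and 45 min, and were then returned to complete medium, as were the controls. Oocytes of both groups were exposed to sperm for 4 h, so the oocytes received no treatment of their own. Each of 16 control- and 15 SER-generated embryos, collected 32 h postinsemination (HPI), gave 1 Smart-seq3 library.

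A mature mouse egg waits at metaphase of the second meiotic division with active Cdk1 bound to a B-type cyclin, and the Mos kinase helps to hold it there through the MAP kinase pathway. Fertilization releases calcium, B-type cyclins are destroyed and Wee2 places the inhibitory phosphate on Cdk1, so that meiosis ends and pronuclei form. Cleavage then depends on renewed cyclin synthesis, on Cdc25 phosphatases that remove the inhibitory phosphate and on Plk1. The egg stores RNA for these proteins, and at the 2-cell stage much of the stored RNA is lost while the embryo begins large-scale transcription of its own. RNA levels in an embryo are therefore a sum of what is left of the maternal store and what has been made anew, and counts per gene do not separate these sources.

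The genes lie on 8 chromosomes, in the coordinates of GENCODE vM21 on GRCm38. Ccna2, on chromosome 3 from 36564865 to 36572150, encodes cyclin A2, which works with Cdk2 in S phase and with Cdk1 in mitosis. Ccnb1, on chromosome 13 from 100778650 to 100786570, and Ccnb2, on chromosome 9 from 70407692 to 70421547, encode the B-type cyclins that bind Cdk1 for division. Ccne1, on chromosome 7 from 38097984 to 38107534, encodes cyclin E1, the partner of Cdk2 at the start of S phase. Cdk1 and Cdk2 both lie on chromosome 10, from 69335146 to 69352938 and from 128697939 to 128705031. Mos, a gene of a single exon on chromosome 4, spans 3870657 to 3872105. Wee2 lies on chromosome 6 from 40439088 to 40466813, Cdc25b on chromosome 2 from 131186949 to 131198497 and Plk1 on chromosome 7 from 122159439 to 122169873. Wee2, Cdc25b and Plk1 are on the plus strand and the other 7 genes on the minus strand.

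Sequence before the transcription start is shown for 2 genes whose levels rose and fell with each other across embryos, Ccne1 and Cdk1, and for Ccnb1 and Ccnb2, which also varied together and of which Ccnb2 ran opposite to Ccne1. It comes from RefSeq on GRCm38.p6, runs 5′ to 3′ toward the start and leaves out bases inside the GENCODE gene. Capitals mark CCAAT on either strand (ATTGG when it lies on the other strand) and TTTGAA.
Ccne1, chr7:38107535-38107740, minus strand: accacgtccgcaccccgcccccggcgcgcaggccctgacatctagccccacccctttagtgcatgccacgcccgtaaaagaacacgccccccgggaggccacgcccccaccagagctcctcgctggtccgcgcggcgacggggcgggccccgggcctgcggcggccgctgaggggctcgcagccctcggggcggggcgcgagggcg
Cdk1, chr10:69352939-69353162, minus strand: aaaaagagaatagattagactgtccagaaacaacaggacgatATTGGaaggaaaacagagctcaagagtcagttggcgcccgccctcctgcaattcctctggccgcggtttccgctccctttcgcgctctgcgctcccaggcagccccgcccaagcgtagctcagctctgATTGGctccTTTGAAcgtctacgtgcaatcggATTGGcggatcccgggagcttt
Ccnb1, chr13:100786571-100786736, minus strand: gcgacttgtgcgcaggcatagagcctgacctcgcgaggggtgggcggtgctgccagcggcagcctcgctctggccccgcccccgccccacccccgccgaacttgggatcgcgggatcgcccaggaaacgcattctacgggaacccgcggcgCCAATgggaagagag
Ccnb2, chr9:70421555-70421804, minus strand: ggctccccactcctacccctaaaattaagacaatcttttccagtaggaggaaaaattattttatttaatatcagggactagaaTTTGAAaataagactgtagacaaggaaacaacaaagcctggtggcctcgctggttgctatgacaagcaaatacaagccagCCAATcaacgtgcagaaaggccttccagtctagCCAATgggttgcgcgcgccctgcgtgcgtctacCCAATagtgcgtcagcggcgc
CCAAT and TTTGAA are short letter patterns often found before genes of mitosis. The full windows searched ran from 250 bases before to 50 bases after the RefSeq start and were found for 8 of the 10 genes, all but Ccna2 and Mos. CCAAT was present in 7 of the 8, with Ccne1 as the exception, and in 37.4% of all 32851 windows of this length. Ccnb2 and Cdk1 each held 3 copies of CCAAT and 2 of TTTGAA, a pattern found in 17.9% of all windows, and Plk1 held 1 copy of each. The overlapping pattern TTCGAA, found in 1.56% of all windows, was present only in Cdc25b among the 8, and TATAAA, found in 13.6%, in none of them. These matches describe letters in a window, not bound sites.

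The totals of gene counts ran from 532945 to 2085222 in control- and from 642321 to 3088396 in SER-generated embryos. A level is given as CPM, counts scaled to a common library total, and 3 counts, the upper limit for a count of 0, correspond to 0.971 to 5.63 CPM depending on the library. Intervals on counts cover counting error only. Over all 10 genes no correlation with log2 library total passed an adjusted p of 0.05, and the closest was Plk1 (Pearson r = 0.353, Spearman rho = 0.426, permutation p = 0.0480 and 0.0179, adjusted p = 0.480 and 0.179 over 10 genes, n = 31). Within control- and SER-generated embryos, untested, r was 0.0218 and 0.702 for Plk1, 0.611 and -0.388 for Cdk1, -0.541 and 0.158 for Cdc25b and -0.503 and 0.182 for Wee2. According to the study, control- and SER-generated embryos came from independent batches, and sperm of a male were split between control and SER medium. No label names the batch or the male of an embryo, so neither could be fitted. How the groups were spread over batches is therefore not known here. The main tests below count each embryo as independent and make no allowance for likeness within a batch.

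Control replicate 4 and SER replicate 15 stood apart and were singled out after their values were seen. The mean log2(CPM + 1) of 26 genes of 2-cell zygotic activation was 1.71 and 2.36 in these embryos and 3.79 to 5.73 in the other 29. Of the 2 most abundant genes of that list, Usp17lb had no count in either embryo and 126 to 851 CPM in the others, whereas Klf17 reached 1830 and 2151 CPM, within the 278 to 2478 CPM of the others. The mean over 27 maternal oocyte genes was 8.55 and 8.38, above the 6.27 to 8.24 of the others, but the summed CPM of the list, 45308 and 30116, lay within the 16165 to 62046 of the others. Of its most abundant genes, Omt2b and Omt2a, SER replicate 15 held 2686 and 1596 CPM, below the others (at least 3993 and 2628), and control replicate 4 lay within their range. Their library totals were 662768 and 2567720. Calls and correlations below are therefore given with and without these embryos. Cumulus cell markers summed to 0 to 349 CPM and sperm markers to 91.4 to 387 CPM in any embryo. A median of 0 was found for 11 of 16 cumulus genes in each group. Of the 12 sperm genes it was found for 9 in control- and 8 in SER-generated embryos. Most of each sum came from 1 gene. Amhr2 had medians of 105 CPM (control) and 139 CPM (SER), beside cumulus sums of 144 and 183 CPM. Odf2 had medians of 171 and 169 CPM, beside sperm sums of 188 and 186 CPM. The lowest cumulus sums were those of control replicate 4, at 27.2 CPM, and SER replicate 15, at 0, beside 43.6 to 349 CPM in the others, and their part in the levels was not tested.

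Ccna2 was abundant and among the steadiest of the genes. It ran from 382 to 1388 CPM with a median of 798 in control-generated embryos and from 292 to 972 CPM with a median of 768 in SER-generated embryos. The groups overlapped, with 4 controls above the highest SER-generated embryo. The lowest level of each group belonged to control replicate 4 and SER replicate 15.

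Ccnb1 ran from 323 to 1131 CPM with a median of 680 in controls and from 364 to 1961 CPM with a median of 570 in SER-generated embryos. SER replicates 14 and 15, at 1739 and 1961 CPM, were the only embryos above the highest control. Ccnb2 was lower, at 25.9 to 201 CPM with a median of 58.1 in controls and 14.5 to 261 CPM with a median of 34.9 in SER-generated embryos. SER-generated embryos held both ends of the Ccnb2 range, with 3 of 15 below the lowest and 1 above the highest control.

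Ccne1 had a high level in all but 2 embryos. Controls ran from 9.05 to 1474 CPM with a median of 707, and SER-generated embryos from 1.95 to 1360 CPM with a median of 646. The low ends were control replicate 4, with 6 counts (exact 95% interval 3.32 to 19.7 CPM), and SER replicate 15, with 5 counts (0.632 to 4.54 CPM). The other 29 embryos held 258 to 1474 CPM, so that no embryo lay between the lowest 2 and the rest.

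Cdk1, the kinase that drives meiotic and mitotic division, ran from 55.8 to 1389 CPM with a median of 405 in controls and from 73.2 to 935 CPM with a median of 476 in SER-generated embryos. Its lowest values were again in control replicate 4 and SER replicate 15, and the other 29 embryos held 169 to 1389 CPM. Cdk2, the partner of cyclins E and A, ran from 16.6 to 206 CPM with a median of 108 in controls and from 63.5 to 259 CPM with a median of 126 in SER-generated embryos. Both kinases overlapped widely between groups, with 9 of 15 SER-generated embryos above the control median for each.

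Mos RNA was at or near 0 in most embryos. Its level was 0 to 33.4 CPM with a median of 1.01 in controls and 0 to 17.1 CPM with a median of 3.04 in SER-generated embryos. Libraries without a Mos count numbered 6 among the 16 controls and 4 among the 15 SER-generated embryos, with 3 counts or fewer in 18 of all 31. Control replicate 13, with 52 counts (24.9 to 43.8 CPM), and SER replicate 15, with 44 counts, were the clear exceptions. For most embryos the depth did not allow a Mos level to be told from 0.

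Wee2, the oocyte kinase that inhibits Cdk1, ran from 398 to 1002 CPM with a median of 774 in controls and from 283 to 1180 CPM with a median of 621 in SER-generated embryos. Here too the SER-generated embryos held both ends, with 5 of 15 above the highest and 2 below the lowest control. Cdc25b, the phosphatase that opposes Wee2, ran from 20.9 to 237 CPM with a median of 96.8 in controls and from 17.0 to 337 CPM with a median of 73.9 in SER-generated embryos. Its 2 highest values were in SER replicate 15 and control replicate 4. Plk1, a kinase of mitotic entry, ran from 45.8 to 480 CPM with a median of 288 in controls and from 194 to 475 CPM with a median of 288 in SER-generated embryos, and 4 controls lay below the lowest SER-generated embryo.

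**Figure D1:**
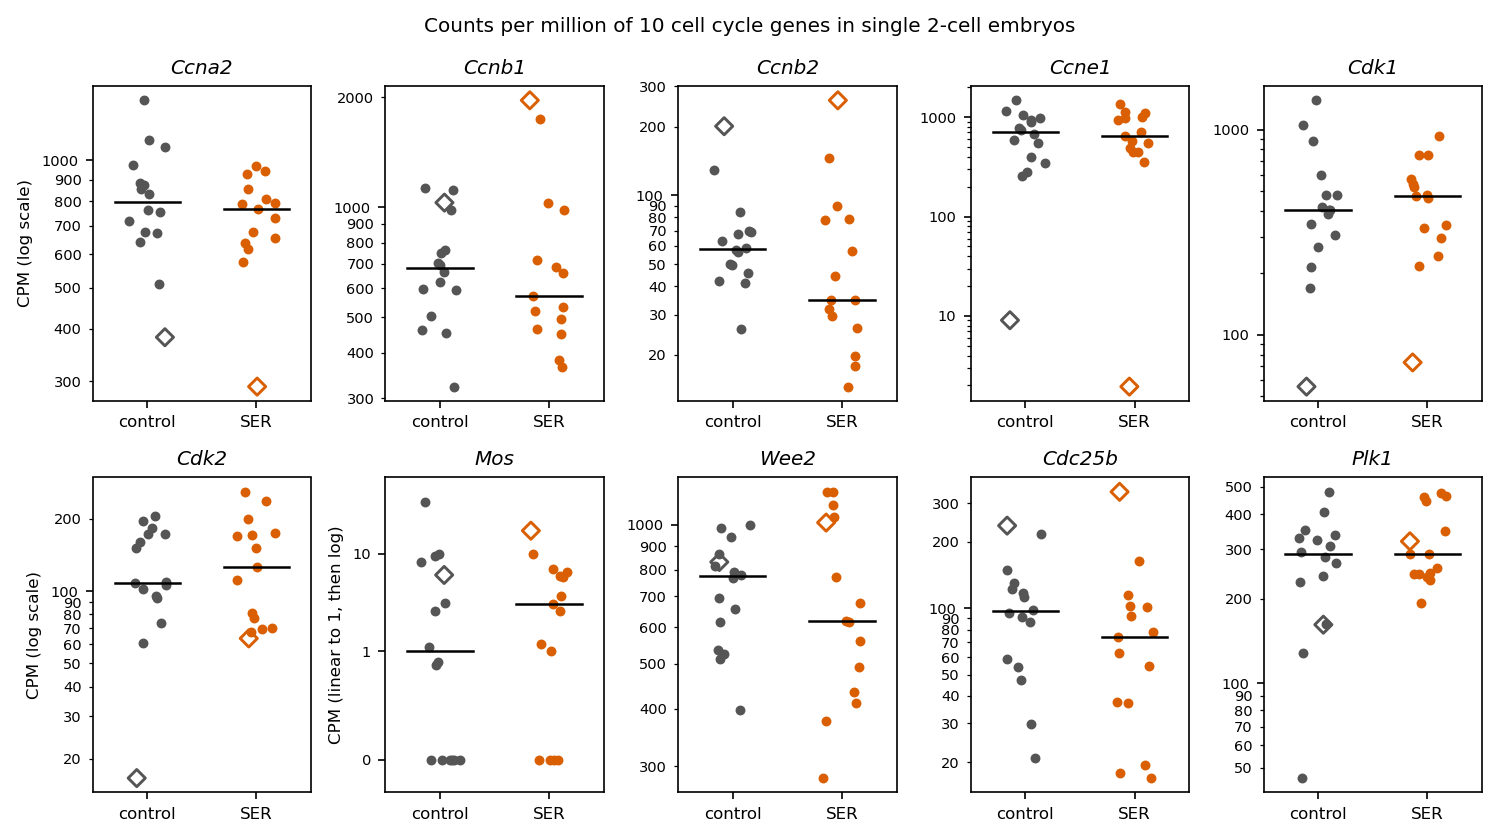
CPM of each gene (log scale, linear below 1 for Mos) in 16 control- and 15 SER-generated embryos, 1 point each, with a line at the group median and diamonds for control replicate 4 and SER replicate 15. The groups overlap in every panel, and the diamonds lie lowest for Ccna2, Ccne1 and Cdk1 and highest for Ccnb2 and Cdc25b.

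SER- and control-generated embryos were compared to ask whether the sperm treatment altered these RNAs after zygotic activation. edgeR's quasi-likelihood test was fitted on all 31 embryos and p-values were adjusted by Benjamini-Hochberg over all tested genes. Of the 10 genes, 9 passed the filter on low counts and Mos did not. None of the 9 had an adjusted p under 0.1 by edgeR, where 0 of all 8571 tested genes (0%) passed. At an unadjusted p under 0.05 the 9 genes also gave 0, and all tested genes 491 (5.73%). DESeq2 gave 0 of the 9, with 45 of 7436 genes called (0.605%), and limma voom with sample quality weights gave 0 of the 9, with 848 of 8571 genes called (9.89%). edgeR without the filter called 0 of the 10 (2.83% of all genes), and with 5 surrogate variables 0 of the 9 (0.105%). Simulated embryos of this depth and spread gave calls for 94.4% of genes changed 4-fold and 26.1% of those changed by a factor of 2. Most changes by a factor of 2 could thus go undetected. The simulation drew each gene independently and without batches, so these shares may not hold for the real embryos.

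Each estimate is given as the log2 fold change of SER over control with its standard error, and the sizes for Ccna2 and Plk1 were slightly above and the others below that error. Those for the cyclins were -0.19 (SE 0.17, edgeR adjusted p = 0.943) for Ccna2, 0.06 (SE 0.25, adjusted p = 0.989) for Ccnb1, -0.14 (SE 0.36, adjusted p = 0.982) for Ccnb2 and 0.03 (SE 0.41, adjusted p = 0.997) for Ccne1. The kinase partners gave -0.15 (SE 0.33, adjusted p = 0.981) for Cdk1 and 0.09 (SE 0.25, adjusted p = 0.982) for Cdk2. Among the regulators the values were -0.06 (SE 0.20, adjusted p = 0.984) for Wee2, -0.28 (SE 0.37, adjusted p = 0.968) for Cdc25b and 0.22 (SE 0.21, adjusted p = 0.951) for Plk1. Mos, taken from a fit without the filter (17803 genes), gave -0.15 (SE 0.83, adjusted p = 0.976).

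An approximate 95% confidence range, taken from the standard error, gives the differences compatible with each estimate. Likeness within a batch is not allowed for in this range. It was narrowest for Ccna2, from -0.52 to 0.15, and for Wee2, from -0.46 to 0.33. For Ccne1 it ran from -0.78 to 0.84, for Cdk1 from -0.80 to 0.50, for Ccnb2 from -0.85 to 0.57 and for Cdc25b from -1.0 to 0.43, so the range for Cdc25b reached a fall by a factor of 2. For Mos the range of -1.77 to 1.47 covered more than a 2-fold change either way. Without control replicate 4 and SER replicate 15 none of the 10 passed by edgeR, and the estimates farthest from 0 were -0.49 (SE 0.32, adjusted p = 0.727) for Cdc25b, -0.49 (SE 0.87, adjusted p = 0.874) for Mos and -0.30 (SE 0.30, adjusted p = 0.843) for Ccnb2. Over all 31 embryos the estimate was above 0 for 4 and below 0 for 5 of the 9, with a median of -0.06 beside 0.02 over all tested genes. Without the same 2 embryos it was above 0 for 3 and below 0 for 6, with a median of -0.09 beside -0.01.

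**Figure D2:**
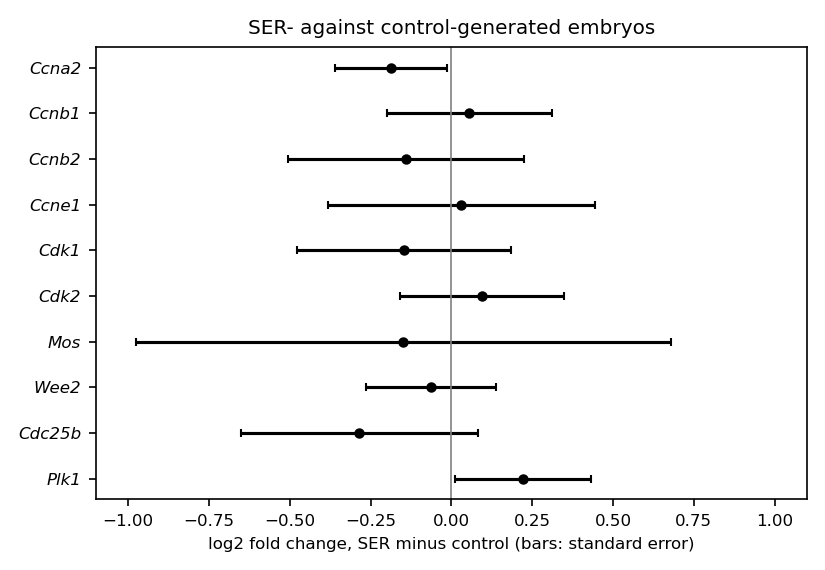
Log2 fold change of SER- over control-generated embryos for each gene (point) with its standard error (bar). All 10 estimates lie between -0.28 and 0.22, and the bar of Mos is the longest.

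Voom with quality weights gave the lowest p-values for these genes, although none passed. By this test 3 of the 9 had an unadjusted p under 0.05, against 23.1% of all tested genes. They were Cdc25b at -0.71 (limma adjusted p = 0.107), Cdk1 at 0.54 (limma adjusted p = 0.141) and Ccnb2 at -0.60 (limma adjusted p = 0.163). The Cdk1 estimate was thus of opposite sign to edgeR's.

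The spread between embryos was compared because the study asks how alike embryos of each group are. The SD of log2(CPM + 1) of Wee2 was 0.38 among controls and 0.66 among SER-generated embryos (permutation test, 2-sided, 100000 resamples, p = 0.0256), but the adjusted p over 10 genes was 0.256. Ccnb2 had an SD of 0.67 and 1.14 (permutation p = 0.102, adjusted p = 0.509). The opposite order was found for Plk1, with 0.81 in control- and 0.42 in SER-generated embryos (permutation p = 0.306, adjusted p = 0.666). None of the 10 differences passed an adjusted p of 0.05, with or without control replicate 4 and SER replicate 15. The lowest adjusted p without them was 0.214, shared by Wee2 and Ccnb2.

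Ratios within an embryo were tested because their scale does not depend on the library total, except where a count is 0, as for Mos in 10 of 31 embryos. The ratio of Ccnb1 to Ccnb2 had a median log2 of 3.26 in controls (range 2.35 to 4.87) and 3.72 in SER-generated embryos (range 2.56 to 4.81). The mean difference of 0.42 (SE 0.24) was not beyond the spread between embryos (permutation test, p = 0.0924, adjusted p = 0.462 over 5 ratios). Cdc25b to Wee2, phosphatase over kinase, differed by -0.35 (SE 0.34, permutation p = 0.314, adjusted p = 0.785). The ratios of Ccna2 to Ccne1, Cdk1 to Cdk2 and Mos to Plk1 differed by -0.07 (SE 0.60), -0.08 (SE 0.36) and -0.02 (SE 0.76), each with an adjusted p of 0.976 by the permutation test. Control replicate 4 and SER replicate 15 had the 2 highest log2 ratios of Ccna2 to Ccne1, at 5.29 and 7.09, and the 2 highest of Cdc25b to Wee2, at -1.81 and -1.58. Without them the lowest adjusted p of the 5 ratios was 0.436 (permutation test, Ccnb1 to Ccnb2).

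Levels of different genes were compared as CPM scaled by TMM (edgeR's library scaling) and divided by exon length in kb. The study merged tagged reads of transcript starts with internal reads before counting. How far such counts follow exon length was not tested, so the scale is approximate. By the median over all 31 embryos the order ran from Ccne1 at 253 per kb through Wee2 at 227, Ccna2 at 192, Ccnb1 at 150, Plk1 at 126, Cdk1 at 84.2, Ccnb2 at 36.5, Cdc25b at 24.1 and Cdk2 at 19.3 to Mos at 1.76. In the run of the 4 leading genes, no difference between neighbours went beyond its spread between embryos (sign-flip permutation test, adjusted p = 0.650, 0.156 and 0.275 over 9 pairs). The mean log2 difference of Ccne1 against Wee2 was -0.24, opposite to the order of their medians, and 0.26 without control replicate 4 and SER replicate 15 (permutation test, adjusted p = 0.277). Below them Ccnb1 exceeded Plk1 in 20 of 31 embryos (permutation test, adjusted p = 0.0297), Plk1 exceeded Cdk1 in 23 (adjusted p = 0.0297), Cdk1 exceeded Ccnb2 in 24 (adjusted p = 0.00273) and Ccnb2 exceeded Cdc25b in 25 (adjusted p = 0.000135). Without the same 2 embryos Ccnb1 over Plk1 and Plk1 over Cdk1 no longer passed (permutation test, adjusted p = 0.0927 and 0.0870), while Ccna2 over Ccnb1 did (adjusted p = 0.0180), so these steps depended on them. Cdc25b and Cdk2 were not told apart (permutation test, adjusted p = 0.677, and mean difference -0.15, adjusted p = 0.465, without the 2 embryos). Cdk2 exceeded Mos in 29 of 31 embryos (permutation test, adjusted p = 9e-05, from the smallest p of 1e-05 that the resamples give).

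**Figure D3:**
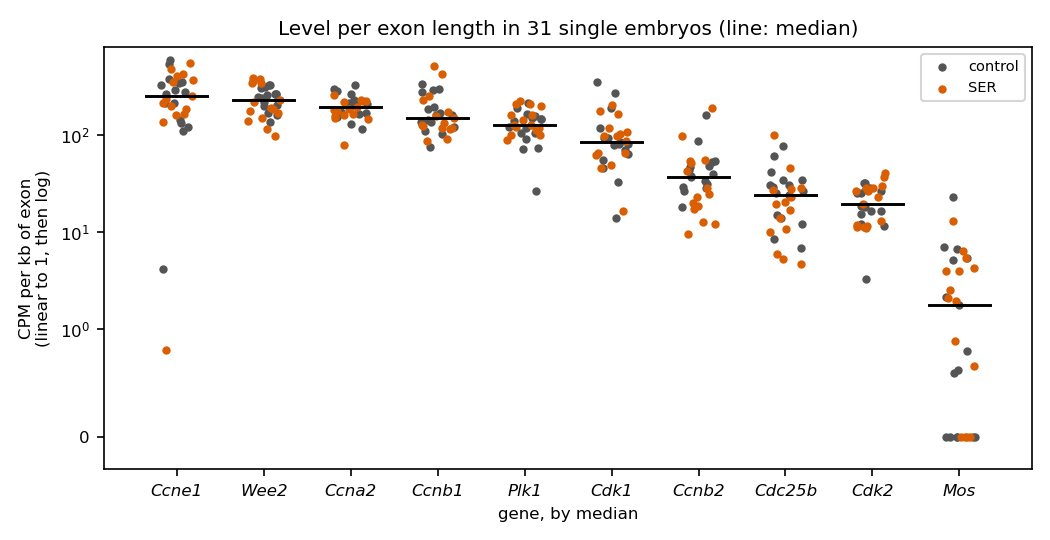
TMM-scaled CPM per kb of exon (log scale above 1, linear below) of each gene in 31 embryos, 1 point each, ordered by the median (line). Levels fall from 253 per kb for Ccne1 to 1.76 per kb for Mos, and the lowest 2 points of Ccne1 are control replicate 4 and SER replicate 15.

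The place of a gene in this order depends on which transcript is counted. With the length of its longest GENCODE transcript in place of all merged exons, Wee2 moved from the second to the fourth place and Cdk2 rose above Ccnb2 and Cdc25b. In that order neither Ccnb1 over Wee2 nor Cdk2 over Ccnb2 passed (permutation test, adjusted p = 0.102 and 0.955). Reads of some genes may also be shared or lost. Of the 30-base words of the longest Ccnb1 transcript, 47.1% occur in 6 other genes, chiefly the pseudogene Ccnb1-ps, and of those of Plk1 15.9% occur in Plk-ps1, so both levels are uncertain. On the opposite strand, Exosc9 covers 12.5% and Gm44985 covers 7.09% of the exon bases of Ccna2 and Plk1, Spef1 covers 2.47% of those of Cdc25b and Pmel covers 0.547% of those of Cdk2, and the strand setting of the counting is not given in the sources used here.

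The genes did not vary independently between embryos. Since control replicate 4 and SER replicate 15 formed a separate cluster, correlations of log2(TMM-scaled CPM + 1) are given first over the other 29 embryos, with permutation p-values adjusted over 45 pairs. Of these pairs 10 passed an adjusted p of 0.05, 5 positive and 5 negative, and 12 passed by rho. With all 31 embryos the number was 19, with 9 positive and 10 negative and 16 by rho, and it included the 10 found by r. All genes of an embryo were scaled by the same library total, and the embryos share batches that are not known. No cause of a correlation was tested.

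Cdk1 was high in the same embryos as Ccna2 and as Ccne1. Over 29 embryos r was 0.694 for Ccna2 with Cdk1 (rho = 0.754, permutation adjusted p = 0.00045) and 0.575 for Ccne1 with Cdk1 (rho = 0.636, permutation adjusted p = 0.00817). The first held within each group, at 0.675 in 15 control- and 0.802 in 14 SER-generated embryos, and the second was 0.433 and 0.821. For Ccna2 with Ccne1 r was 0.445 (permutation adjusted p = 0.0663), which did not pass, whereas rho was 0.470 (permutation adjusted p = 0.042).

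Wee2 and the B-type cyclins formed another set. Over 29 embryos r was 0.645 for Ccnb2 with Wee2 (rho = 0.602, permutation adjusted p = 0.00247), 0.595 for Ccnb1 with Ccnb2 (rho = 0.513, permutation adjusted p = 0.0063) and 0.542 for Ccnb1 with Wee2 (rho = 0.625, permutation adjusted p = 0.0138). Within control- and SER-generated embryos Ccnb2 with Wee2 gave 0.650 and 0.627. Ccnb1 with Ccnb2 gave 0.473 and 0.708 within the groups, and Ccnb1 with Wee2 gave 0.349 and 0.674. Cdc25b was positively related to Wee2 with r = 0.438, which did not pass (rho = 0.417, permutation adjusted p = 0.0663).

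In 5 pairs Ccne1 or Cdk1 ran against Wee2, Cdc25b or Ccnb2, and no such pair held Ccna2 or Ccnb1. The sets were thus opposed only in part. For Ccnb1 r was -0.415 with Ccne1 (permutation adjusted p = 0.0764) and 0.0685 with Cdk1 (permutation adjusted p = 0.918). Ccnb1 with Cdk1 gave 0.527 within control- and -0.570 within SER-generated embryos, a difference that was not tested. For Ccnb2 with Cdk1 r was -0.228 (permutation adjusted p = 0.460). Embryos with much Ccne1 had little Wee2 (r = -0.713, rho = -0.720, permutation adjusted p = 0.00045, n = 29), little Cdc25b (r = -0.684, rho = -0.663, permutation adjusted p = 0.0009) and little Ccnb2 (r = -0.533, rho = -0.533, permutation adjusted p = 0.0143). Cdk1 was likewise opposed to Wee2 (r = -0.545, rho = -0.610, permutation adjusted p = 0.0138) and to Cdc25b (r = -0.507, rho = -0.566, permutation adjusted p = 0.0211). The relation of Ccne1 with Wee2 was present in both groups, at -0.811 in control- and -0.716 in SER-generated embryos, as was that of Ccne1 with Cdc25b, at -0.757 and -0.653. Within the groups r was -0.623 and -0.552 for Ccne1 with Ccnb2, -0.404 and -0.772 for Cdk1 with Wee2 and -0.669 and -0.379 for Cdk1 with Cdc25b. Leaving out, for each of the 10 pairs, the 2 embryos farthest from the median of the first gene of the pair changed no sign, and r then ran from 0.474 to 0.681 for the positive and from -0.717 to -0.489 for the negative pairs.

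Plk1, Cdk2 and Mos stood outside both sets. No pair with Plk1 or Mos passed by r in 31 or 29 embryos. By rho a single pair did, Ccnb2 with Mos in 29 embryos (rho = -0.480, permutation adjusted p = 0.0384, beside r = -0.423, permutation adjusted p = 0.0735). Cdk2 had a single pair that passed in 31 embryos, with Ccne1 (r = 0.507, rho = 0.127, permutation adjusted p = 0.0338), and its r over the other 29 embryos was 0.0329 (rho = -0.0424), so that relation rested on control replicate 4 and SER replicate 15.

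**Figure D4:**
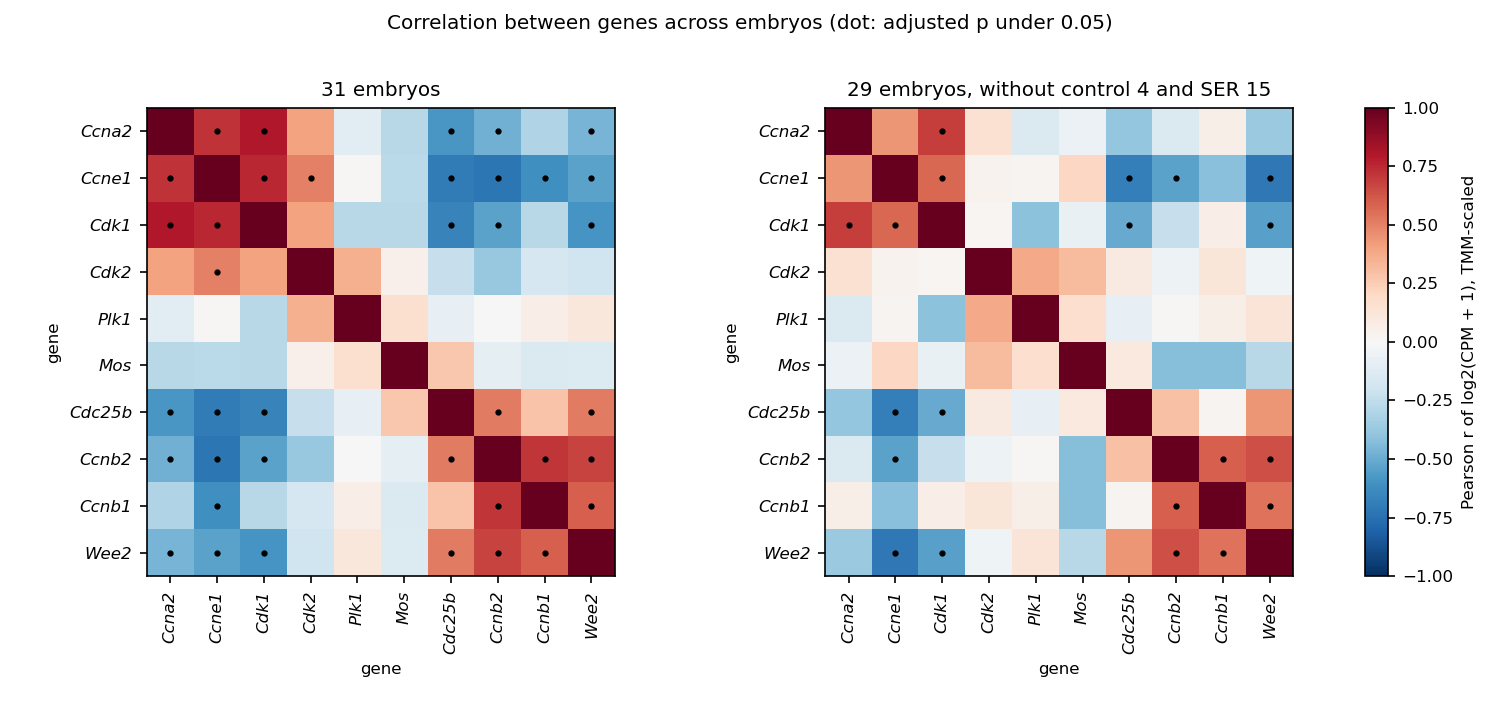
Pearson r of log2(CPM + 1), TMM-scaled, between each pair of genes over 31 embryos (left) and 29 embryos (right), red for positive and blue for negative, with a dot where the permutation adjusted p is under 0.05. On the left Ccna2, Ccne1 and Cdk1 form a red block, blue against Wee2, Ccnb2 and Cdc25b, with 19 pairs past the threshold. On the right 10 pairs pass, and the 5 negative ones each hold Ccne1 or Cdk1 and none holds Ccna2.

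In control replicate 4 and SER replicate 15 the same opposition was extreme, and these values are a description of 2 libraries. Both embryos held the 2 lowest TMM-scaled levels for 3 of the 9 tested genes, Ccna2, Ccne1 and Cdk1 (33.3%), as for 12.2% of all tested genes. They held the 2 highest levels for Ccnb2 and Cdc25b (22.2%), as for 6.72% of all tested genes. Wee2, at 831 and 1012 CPM, and Plk1, at 161 and 320 CPM, lay within the range of the other embryos. Cdk2 was lowest in control replicate 4, at 16.6 CPM from 11 counts, and was 63.5 CPM in SER replicate 15, just inside the range of 60.5 to 259 CPM of the rest.

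The genes were also set against the zygotic and maternal lists, which contain none of them. Over 31 embryos 13 of 20 relations passed an adjusted p of 0.05, 5 with the zygotic and 8 with the maternal list, and over the 29 embryos 0 of 20 passed. For Ccne1 with the zygotic list r was 0.803 over 31 embryos (rho = 0.472, permutation adjusted p = 0.00103) and 0.311 over 29 (rho = 0.356, permutation adjusted p = 0.181). Cdk1 came nearest to passing in 29 embryos, at 0.511 (rho = 0.431, permutation p = 0.00473, adjusted p = 0.0946), with 0.851 in 15 control- and 0.160 in 14 SER-generated embryos. The difference between these values was not tested. Wee2 and Ccnb1 with the maternal list gave 0.461 and 0.447 over 29 embryos (rho = 0.438 and 0.404, permutation adjusted p = 0.101 for both). The calls for the lists thus depended on control replicate 4 and SER replicate 15, and values of this size over 29 embryos do not show that a relation is absent.

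**Figure D5:**
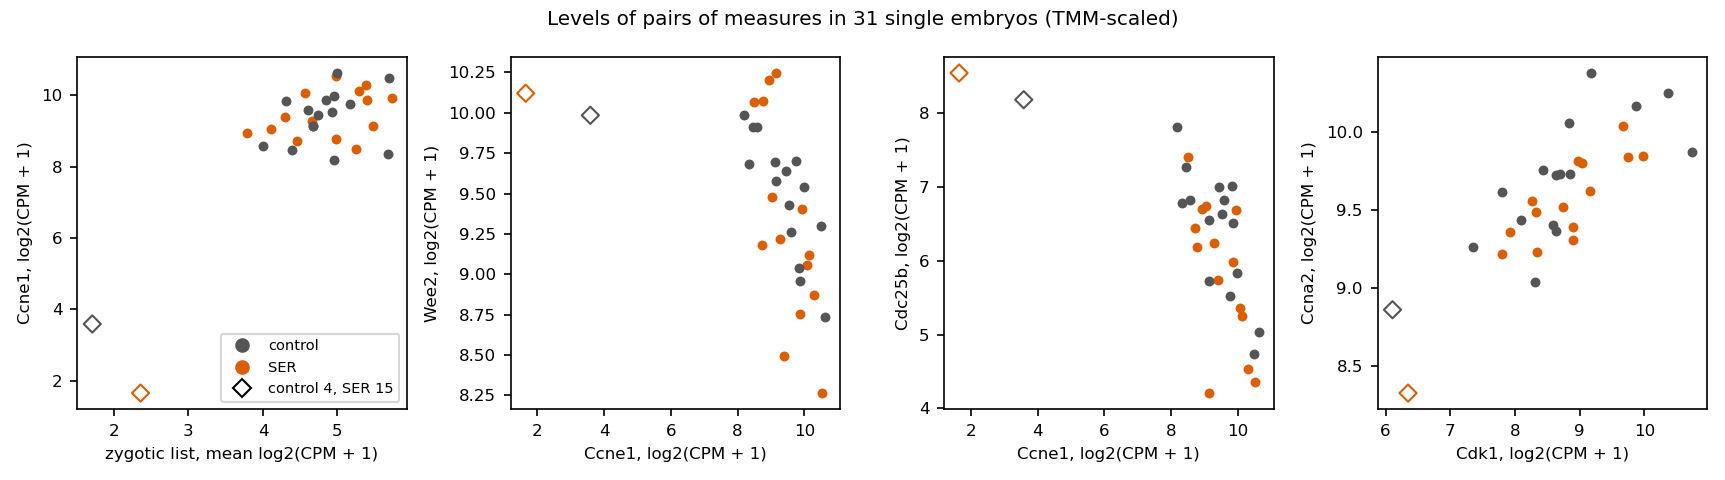
Log2(CPM + 1), TMM-scaled, in 31 embryos for Ccne1 against the mean of the zygotic list, Wee2 and Cdc25b against Ccne1, and Ccna2 against Cdk1, grey for control and orange for SER, with diamonds for control replicate 4 and SER replicate 15. The diamonds lie far from the other 29 embryos on the axis of Ccne1, while within the others Wee2 and Cdc25b fall with Ccne1 (r = -0.713 and -0.684) and Ccna2 rises with Cdk1 (r = 0.694).

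For each of the 9 tested genes, the other 8570 tested genes were ranked by r over 31 embryos. Ccne1 was most like Ppat, an enzyme of purine synthesis (r = 0.978, and 0.853 in 29 embryos), and Ncbp1, a subunit of the RNA cap-binding complex (0.971 and 0.786), with 528 genes over 0.8 (29 in 29 embryos). Cdk1 was most like the ribosomal protein gene Rps3a1 (0.955, and 0.945 in 29 embryos) and Snupn, an import adaptor for small nuclear RNA particles (0.949 and 0.909), with 325 genes over 0.8 (148 in 29 embryos). Wee2 was most like Tpd52 (0.918 and 0.911) and Tpgs2 (0.915 and 0.908), with 56 genes over 0.8 (49 in 29 embryos). Ccna2 followed the chaperone gene Hspa8 (0.860 and 0.757), with 38 genes over 0.8 (0 in 29 embryos).

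The remaining genes had fewer companions over 0.8 than these in 31 embryos, but in 29 embryos Ccna2 had 0. Ccnb1 had 8 genes over 0.8 (2 in 29 embryos), led by Lrrc40 (0.881, and 0.846 in 29 embryos) and the spindle checkpoint gene Mad2l1 (0.816 and 0.818). Ccnb2 had 5 (0 in 29 embryos), led by Hmces (0.860 and 0.765) and Tbc1d15 (0.827 and 0.705). Cdc25b was closest to Tyw1 (0.843 and 0.789) and Svopl (0.795 and 0.726), and Plk1 to Tfe3 (0.805 and 0.808) and Aspscr1 (0.796 and 0.824). Cdc25b and Plk1 had 1 gene over 0.8 each in 31 embryos, and 0 and 4 in 29 embryos. Cdk2 had none over 0.8 and was closest to Plk3 (0.777 and 0.655) and Prmt1 (0.770 and 0.574).

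Around these genes, a list of 64 others of the cell cycle (other cyclins, kinases, inhibitors, phosphatases, the MAP kinase branch below Mos and transcription factors of the cycle) was examined, and 58 passed the filter. edgeR called 0 of the 58 at an adjusted p under 0.1. At an unadjusted p under 0.05 it gave 4, all with lower estimates in SER-generated embryos, namely Cdkn1b, Plk2, Cks2 and Cks1b, of which all but Cks2 are named for their p. This was 6.90% of the 58, beside 5.73% of all tested genes. DESeq2 called 1 of the 53 it tested, Cks1b, which was lower (adjusted p = 0.0999). This was 1.89%, beside 0.605% of all genes tested by DESeq2. Voom called 7, with 3 higher and 4 lower, namely Ccng2, Plk4, Aurkc, Mapk3, Ppp2r2a, Cdk7 and Map2k1, which was 12.1% of the 58 beside 9.89% of all tested genes. The edgeR estimates were higher for 20 and lower for 38 genes, with a median of -0.08 beside 0.02 over all tested genes.

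Cks2 and Cks1b encode the small subunits that bind cyclin-dependent kinases. Cks2 ran from 291 to 3297 CPM with a median of 582 in controls and from 207 to 749 CPM with a median of 486 in SER-generated embryos, a log2 fold change of -0.96 (SE 0.31, edgeR adjusted p = 0.465). Cks1b ran from 114 to 1627 CPM with a median of 265 in controls and from 117 to 280 CPM with a median of 206 in SER-generated embryos, a log2 fold change of -1.01 (SE 0.30, edgeR adjusted p = 0.403). The highest value of both was in control replicate 3, which also held the lowest Plk1 (45.8 CPM) and the second highest Cdk1 (1052 CPM). Without it the estimates were -0.59 for Cks2 (edgeR adjusted p = 0.988) and -0.57 for Cks1b (edgeR adjusted p = 0.976). By voom with quality weights they were -0.12 and -0.23 (limma adjusted p = 0.682 and 0.470).

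Of the listed genes with the highest mean CPM, the others named here had no adjusted p under 0.1 by edgeR. Cul1, a scaffold of ubiquitin ligases, had medians of 785 CPM (control) and 810 CPM (SER) (log2 fold change -0.02, SE 0.19). The S-phase factor E2f1 (-0.27, SE 0.21), the mitotic kinase gene Aurka (-0.17, SE 0.19), the centriole kinase gene Plk4 (-0.28, SE 0.23), Mybl2 (-0.03, SE 0.22) and Camk2g, the kinase that carries the calcium signal of the egg (-0.11, SE 0.32), had edgeR adjusted p-values from 0.935 to 0.993. Cdc25c, a phosphatase of the same family as Cdc25b, had medians of 381 and 377 CPM (log2 fold change -0.13, SE 0.45, edgeR adjusted p = 0.985). It had 1 count in control replicate 4, none in SER replicate 15 and 80.9 to 801 CPM in the other 29 embryos, so the same 2 embryos that were high in Cdc25b were lowest in Cdc25c.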

How the data were processed

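RNA of 31 single 2-cell embryos was measured by Smart-seq3. The authors aligned reads (STAR), dropped duplicates (UMI tools, Picard) and counted reads per gene with featureCounts on mm10, per the labels and the study's methods, and the deposited values are raw counts per gene symbol. No label names batches, so none were corrected here. The 10 genes, the marker lists and the cell cycle list were chosen with earlier results of these data known. From the deposited counts, edgeR 4.0.16 (R 4.3.3) was run with TMM, filterByExpr (minimum count 10, minimum total 15) and no covariate. Standard errors are the fold change over the square root of F. Permutation tests used 100000 resamples, with a pseudocount of 1 CPM, or 0.5 counts in ratios. Replicates are separate embryos, which may share parents. Of 225 pairs of libraries within groups none were identical. edgeR's test was tested on simulated data, where it called 109 of 182 changed and 11 unchanged genes among 8086. Genes named were the 10, the 8 listed cell cycle genes of highest mean CPM, the 2 most abundant genes of the zygotic and maternal lists, and the 2 genes most alike to each, of which 1 is not reported here. Cks1b, the other cell cycle genes with a low p, Amhr2 and Odf2 were named after their values were seen. Alternatives used DESeq2 1.42.0, limma 3.58.1 and sva 3.50.0.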

Additional observations from a re-analysis of the deposited data

How the results depend on the processing

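None of the 10 genes passed an adjusted p of 0.1 under the alternatives that tested them: DESeq2's size factors, no filter or a stricter filter on low counts, DESeq2, voom, the library total or 5 surrogate variables as covariates, thinned counts, or each embryo left out (0 to 0 genes called). Mos got no adjusted p from the stricter filter, DESeq2, voom or the surrogate variables. The number called over all genes moved from 0 to 504 without the filter, 45 by DESeq2, 848 by voom and 9 with surrogate variables. For the cell cycle list it moved from 0 to 1 of 64 without the filter (1.56%, beside 2.83% of all genes). By DESeq2 it was 1 of 53 (1.89%, beside 0.605%) and by voom 7 of 58 (12.1%, beside 9.89%). Whether the replicate numbers pair embryos is given by no label and was not settled by their correlations. Of 15 same-numbered pairs 8 had a correlation over 0.1 (median 0.113, range -0.368 to 0.494). Among the controls of these pairs, 4 correlated best with the SER-generated embryo of their own number. With the replicate number as a block edgeR called 0 of 8361 genes and 0 of the 10 (309 genes at an unadjusted p under 0.05), and estimates of opposite sign were -0.0279 for Ccnb1, -0.0302 for Ccne1, 0.50 for Mos, 0.10 for Mybl2 and 0.10 for Camk2g.
Without control replicate 4 and SER replicate 15, an alternative chosen after seeing the data, 10 of 45 pairs and 0 of 20 relations to the lists passed, and the signs turned for Ccnb1 (-0.0659), the Cdk1 to Cdk2 ratio (0.0190), the SD differences of Ccne1 (-0.16) and Cdk2 (0.15), Ccnb2 with the zygotic list (0.0626) and Cdk1 with the maternal list (0.0513). Other estimates that turned sign were, with the library total as covariate, -0.27 for Ccnb1, 0.0681 for Mybl2 and 0.16 for Camk2g. With surrogate variables they were -0.33 for Ccne1 (unadjusted p = 0.0382, edgeR adjusted p = 0.498), 0.0629 for Cdk1, 6.88e-05 for Wee2, 0.00894 for Cdc25b, 0.0503 for Cul1 and 0.0320 for Camk2g. By voom they were 0.54 for Cdk1, -0.0712 for Cdk2, 0.10 for Aurka and 0.19 for Cdc25c, and without the filter 0.00127 for Cul1. The cause was not tested. Leaving out each embryo gave -0.14 to 0.13 for Ccnb1, -0.53 to 0.0849 for Ccnb2, -0.0777 to 0.15 for Ccne1, -0.26 to 0.0672 for Cdk1, -0.23 to 0.000803 for Cdc25c, -0.10 to 0.0388 for Cul1, -0.12 to 0.0272 for Mybl2 and -0.48 to 0.63 for Mos, the last value without control replicate 13. Without a change of sign it gave -0.66 (without SER replicate 15) to -0.12 (without control replicate 4) for Cdc25b, 0.00121 (without SER replicate 12) to 0.15 for Cdk2 and -0.13 (without SER replicate 13) to -0.00371 (without SER replicate 7) for Wee2. Not divided by length, levels put Ccna2 first (not told apart from Wee2), Cdk1 above Plk1 (permutation test, adjusted p = 0.0354) and Cdk2 and Cdc25b above Ccnb2 (adjusted p = 0.0352 for Cdc25b). Counts under about 10 limit Mos, and Ccne1 in the lowest 2 embryos.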
